A study of Mus musculus with 142 samples.

Results

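The teneurins (Tenm1, Tenm2, Tenm3 and Tenm4), the latrophilins (Adgrl1, Adgrl2 and Adgrl3) and the Flrt genes (Flrt1, Flrt2 and Flrt3) are 3 gene families whose proteins bind each other at the cell surface. These 10 genes, of 54127 genes to which a transcript could be assigned, were measured by RNA-seq in mouse oligodendrocyte precursor cells (OPCs), the proliferating cells that give rise to myelinating oligodendrocytes. The members were listed by name, and the set was chosen by the level of Tenm3, which was higher in K27M than in control in every region and day. The differences of Tenm3 between K27M and control are therefore given as a description with no test, and the other 9 genes carry the tests of genotype. Tests of Tenm3 between regions and between days use the same libraries, so they are no support for that choice. All 10 genes passed the filter on low counts, and none of them was at 0 in any library.

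OPCs were purified by panning on an antibody to PDGFRa from pups at postnatal days 5 to 7 and came from the brainstem or from the dorsal telencephalon (cortex, hippocampus and corpus callosum). K27M pups carried a knock-in of the lysine to methionine mutation at the endogenous H3f3a locus behind a loxP-flanked stop cassette, opened by Cre under the human GFAP promoter, which is active in embryonic neural stem and progenitor cells. Control pups were littermates, all mice were on the FVB background, and tissue of a litter was pooled by region and genotype, so a culture is a pool of animals. Day 0 cells were in proliferation medium with forskolin, CNTF, neurotrophin-3 and PDGF. Cells of days 1, 2 and 5 had been in differentiation medium with forskolin, CNTF and thyroid hormone. Each of the 16 groups (region by genotype by day) holds 9 libraries, or 8 in brainstem control at day 1 and brainstem K27M at day 2, taken as wells of cultures 38, 41 and 42. Wells of a culture share its cells, but p-values over libraries count each well as a separate sample. They include the spread between wells of 1 culture and can be too small for differences between cultures. Results that also held when the wells of a culture and day were summed, where n is the 3 cultures, are named as such.

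Teneurins are large transmembrane proteins with a long extracellular part that binds teneurins on other cells and, across the cleft between cells, the latrophilins. Latrophilins are adhesion G protein-coupled receptors, which pass the contact on to G proteins inside the cell. Flrt proteins carry leucine-rich repeats and bind latrophilins as well as the netrin receptors of the Unc5 family. The 3 families are known mainly from axon guidance and synapse formation in neurons, and Tenm4 is also known from myelination of small axons.

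The windows before the start sites that serve the counted transcripts are printed for 3 members, 1 from each family. In these members, at least 94.5% of the counts came from transcripts that start within 1000 bases of the annotated start. The sequences are the 250 bases before the start (RefSeq, GRCm38.p6, 5′ to 3′ on the strand of the gene), with CG dinucleotides, the targets of DNA methylation, in capitals. They lie at chr8:48674691-48674940 on the minus strand for Tenm3, at chr2:140671477-140671726 on the minus strand for Flrt3 and at chr8:83899848-83900097 on the plus strand for Adgrl1.
Tenm3: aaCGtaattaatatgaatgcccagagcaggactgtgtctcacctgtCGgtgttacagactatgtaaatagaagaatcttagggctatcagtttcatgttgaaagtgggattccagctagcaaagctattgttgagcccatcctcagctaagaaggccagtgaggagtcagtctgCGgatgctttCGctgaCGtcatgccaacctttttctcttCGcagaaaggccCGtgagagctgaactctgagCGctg
Flrt3: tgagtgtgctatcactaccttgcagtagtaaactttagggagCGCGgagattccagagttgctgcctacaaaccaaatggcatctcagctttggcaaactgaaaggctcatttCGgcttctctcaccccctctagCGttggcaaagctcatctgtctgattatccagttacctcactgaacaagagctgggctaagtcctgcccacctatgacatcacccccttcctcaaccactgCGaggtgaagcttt
Adgrl1: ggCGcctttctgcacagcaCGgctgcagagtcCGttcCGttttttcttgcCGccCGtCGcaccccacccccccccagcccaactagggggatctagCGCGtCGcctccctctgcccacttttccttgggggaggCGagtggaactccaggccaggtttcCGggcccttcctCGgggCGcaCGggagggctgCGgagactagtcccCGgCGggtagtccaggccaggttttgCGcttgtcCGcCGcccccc
The motif searched was CG, which reads the same on both strands. The Adgrl1 window held 21 CG, the Tenm3 window 8 and the Flrt3 window 5. Of the 32851 windows of that length before all annotated starts, 16.4% held at least 21, 43.0% at least 8 and 55.6% at least 5. These are counts of letters in the reference and no measurement of methylation.

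Depth ran from 26.6 to 455 M read pairs per library with a median of 46.9 M, and the deepest library, of brainstem control at day 5, lay far above the second (84.7 M). OPC markers were present in every library (Pdgfra at 74.4 to 1757 CPM, counts scaled to library size), and all 7 oligodendrocyte markers rose from day 0 to day 5 in each region and genotype. Microglial markers summed to at most 7.10 CPM and vascular and fibroblast markers to at most 22.5 CPM in any library. Of the 11 neuronal markers, Slc17a6 and Slc32a1 were at 0 in 100 and 75 libraries and reached 0.437 and 2.71 CPM. Snap25 (0.858 to 9.98 CPM), Syt1 (1.06 to 10.5), Gad1 (0.0615 to 26.2), Tubb3 (14.5 to 508) and Map2 (152 to 1403) were above 0 in every library. The other 4 (Rbfox3, Stmn2, Gad2 and Slc17a7) were at 0 in 1 to 7 libraries, with Stmn2 reaching 13.97 CPM. Mean passage was 5.11 to 6 in the brainstem control groups, 3.33 to 4.33 in the brainstem K27M groups and 1.78 to 2.56 in the telencephalon groups. Batches 1 and 2 held telencephalon and batches 3 and 4 brainstem, so batch and region cannot be told apart.

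Levels of different genes were compared as TPM, the share of transcripts after correction for length, here rescaled to the protein-coding total. Adgrl3 was the most abundant member over all libraries (median 144 TPM, lowest 35.1, highest 375), followed by Adgrl1 (median 56.8 TPM, lowest 19.3, highest 157). The next members lay close to each other and their ranges overlapped, with medians of 15.8 TPM for Flrt3, 13.5 for Tenm3, 10.9 for Tenm4, 9.09 for Flrt2 and 8.34 for Adgrl2. Tenm2 (2.55), Flrt1 (1.69) and Tenm1 (1.00) had the lowest medians. The lowest group mean was that of Tenm1 in telencephalon control at day 5, 0.363 ± 0.140 TPM (SD, n = 9). The mean TPM of Adgrl3 and of Adgrl1 was above that of every teneurin and Flrt gene in each of the 16 groups.

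**Figure D1:**
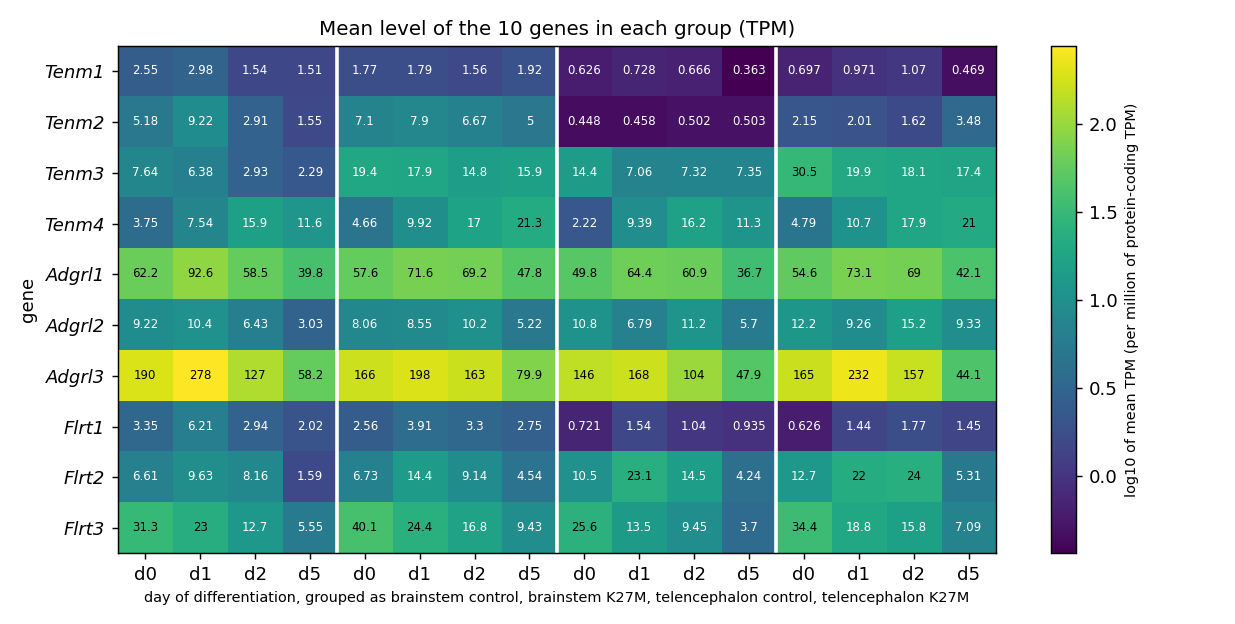
Mean TPM of each of the 10 genes in the 16 groups (9 libraries each, 8 in brainstem control day 1 and brainstem K27M day 2), printed in each cell and coloured on a log10 scale. The rows of Adgrl3 (44.1 to 278 TPM) and Adgrl1 (36.7 to 92.6 TPM) are the highest in every group, and Tenm1, Tenm2 and Flrt1 are lower in the telencephalon control columns than in the brainstem control columns.

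Tenm3 (ENSMUSG00000031561.16, chromosome 8, 48227682 to 48843951, GRCm38) is a teneurin known for the wiring of visual and hippocampal circuits. These are the values that chose the set. In brainstem at day 0, Tenm3 lay at 12.3 to 21.2 CPM in control libraries (median 17.3) and at 36.3 to 56.7 CPM in K27M libraries (median 51.8). At day 5 the brainstem control libraries lay at 3.29 to 6.70 CPM (median 5.79) and the K27M libraries at 23.3 to 48.6 CPM (median 41.3). The 2 genotypes did not overlap at any day in brainstem, and the lowest K27M library at day 5 was above the highest control library of day 0.

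In telencephalon at day 0, Tenm3 lay at 29.8 to 40.3 CPM in control (median 37.3) and at 60.1 to 92.8 CPM in K27M (median 73.9). At day 5 the control libraries lay at 12.4 to 31.4 CPM (median 19.1) and the K27M libraries at 26.5 to 59.4 CPM (median 44.6), so that the genotypes overlapped there, and at no other day. The fitted log2 differences between K27M and control in brainstem were 1.57 ± 0.12 (SE) at day 0, 1.76 ± 0.13 at day 1, 2.40 ± 0.13 at day 2 and 2.88 ± 0.13 at day 5. In telencephalon they were 1.05 ± 0.12, 1.59 ± 0.12, 1.19 ± 0.12 and 1.13 ± 0.12 at the same days. All 3 cultures had the same sign in each of the 8 differences, with single cultures between 0.65 (telencephalon culture 38, day 5) and 3.45 (brainstem culture 42, day 5). The group means of brainstem control were lower at each later day (16.8, 11.9, 6.62 and 5.15 CPM), while those of brainstem K27M lay at 35.2 to 49.4 CPM.

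**Figure D2:**
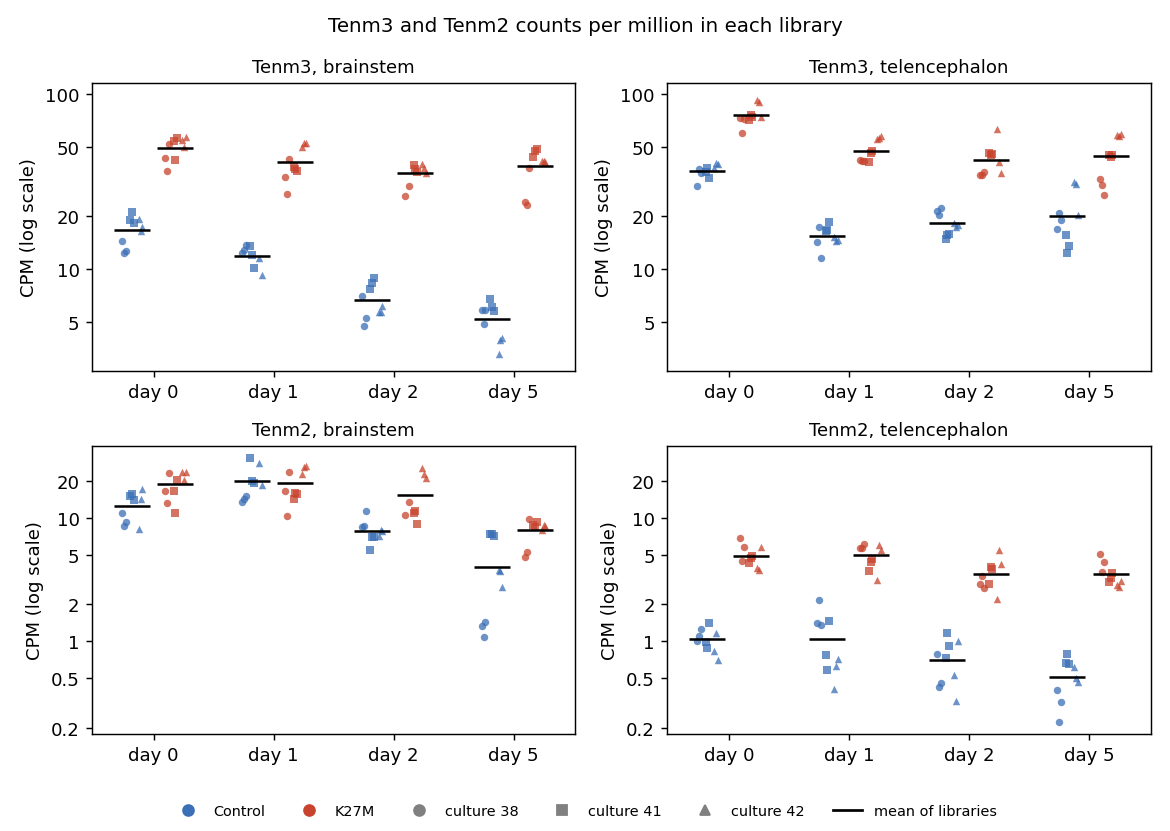
CPM (log scale) of Tenm3 and Tenm2 in each library by day, with control in blue, K27M in red, a marker shape for each culture and a black line at the mean of the libraries of a group. Tenm3 K27M libraries lie above all control libraries in 7 of the 8 region and day panels, and Tenm2 in telencephalon is at 0.222 to 2.14 CPM in control and 2.22 to 6.83 CPM in K27M.

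The other 9 members were tested for K27M against control with edgeR's quasi-likelihood test at an adjusted p under 0.05. In brainstem at day 0, 3 of the 9 were called, all higher in K27M, where 11.3% of all 19769 genes were called. At day 1, 5 were called (2 higher, 3 lower; 28.8% of all genes). At day 2, 2 were called, both higher (26.1% of all genes). At day 5, 7 were called, all higher in K27M (38.6% of all genes). The median log2 difference of the 9 was 0.66 at day 5, against -0.03 over all genes. On counts summed per culture, no call held at day 0 (1.32% of 23003 genes called on the same sums), day 1 (4.37%) or day 2 (3.79%), and 5 of the 7 held at day 5 (11.5%).

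In telencephalon, 2 of 9 members were called at day 0 (15.7% of all genes), 3 at day 1 (28.8%), 6 at day 2 (32.3%) and 4 at day 5 (22.3%), and all of these calls were higher in K27M. The medians of the 9 log2 differences were 0.13, 0.26, 0.43 and 0.58 at days 0, 1, 2 and 5, against -0.01 to 0.03 over all genes. On counts summed per culture, 1 member held at each day, and it was Tenm2 each time, where 0.335%, 4.41%, 4.60% and 1.99% of all genes were called on the same sums at days 0, 1, 2 and 5. The shares called at day 1 in telencephalon (3 of 9) and at day 2 in brainstem (2 of 9) were close to those of all genes.

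**Figure D3:**
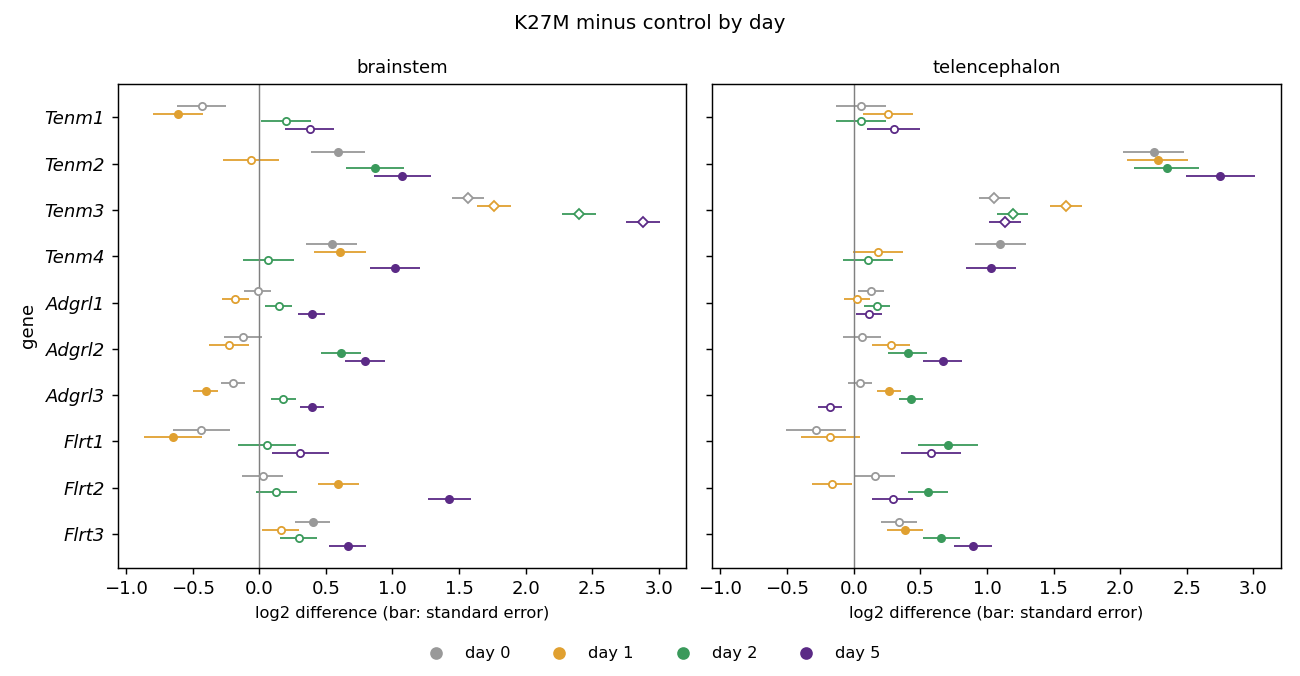
Log2 difference between K27M and control for each gene and day in brainstem and telencephalon, with the standard error as a bar. Filled circles passed the test (adjusted p under 0.05), open circles did not, and the diamonds of Tenm3 carry no test because they chose the set. Tenm2 in telencephalon (2.25 to 2.75) is the only other member at or above 2, and 7 of 9 tested members are filled at day 5 in brainstem.

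Tenm2 (ENSMUSG00000049336.16, chromosome 11, 36006656 to 37235964) is a teneurin best known as the latrophilin ligand at synapses, and it rose in telencephalon K27M at every day. At day 0 it lay at 0.708 to 1.4 CPM in telencephalon control (median 1.01) and at 3.80 to 6.83 CPM in K27M (median 4.74). At day 5 it lay at 0.222 to 0.784 CPM in control (median 0.506) and at 2.75 to 5.06 CPM in K27M (median 3.28). The genotypes did not overlap at any of the 4 days in telencephalon. The log2 differences were 2.25 ± 0.23 at day 0, 2.28 ± 0.23 at day 1, 2.35 ± 0.24 at day 2 and 2.75 ± 0.26 at day 5, with adjusted p from 1.7e-16 to 4.7e-14, and each held on culture sums (adjusted p from 3.5e-05 to 0.00091). Of 10 tested neuronal markers, 3 were called higher in telencephalon K27M at day 0 (15.7% of all genes called) and 10 at day 1 (28.8%). At day 2, 4 were called higher (32.3%), near the share of all genes, and at day 5, 6 (22.3%). At day 0 the markers summed to 690.3 to 869.8 CPM in control and 698 to 976 CPM in K27M, and at day 1 to 599 to 922 CPM and 788 to 1011 CPM. Their part in the result was not tested.

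In brainstem, Tenm2 was higher in K27M at days 0, 2 and 5, and only the day 5 call held on culture sums (adjusted p = 0.035). At day 5 it lay at 1.08 to 7.41 CPM in control and at 4.86 to 9.75 CPM in K27M (log2 1.07 ± 0.21, adjusted p = 1.8e-05). The difference was uneven between cultures at that day, 2.37 in culture 38, 0.27 in culture 41 and 1.3 in culture 42. At day 0 the call was marginal (0.59 ± 0.21, adjusted p = 0.044) and it was lost in 8 of the 13 alternative analyses. Without culture 42 the day 2 difference was 0.41 in place of 0.87 and no longer called.

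Tenm4 (ENSMUSG00000048078.16, chromosome 7, 96171246 to 96911093), the teneurin known for oligodendrocyte differentiation and myelination, was higher in K27M at day 5 in both regions. In brainstem at day 5 it lay at 20.1 to 44.4 CPM in control (median 24.9) and at 42.0 to 71.8 CPM in K27M (median 59.7), a log2 difference of 1.02 ± 0.19 (adjusted p = 4.1e-06, and 0.038 on culture sums). In telencephalon at day 5 it lay at 21.7 to 33.5 CPM in control and at 46.9 to 64.9 CPM in K27M with no overlap, a difference of 1.03 ± 0.19 (adjusted p = 8.5e-06, and 0.096 on culture sums). At day 2 neither difference passed (0.07 ± 0.19 in brainstem and 0.11 ± 0.19 in telencephalon). At day 0 Tenm4 was called in telencephalon (1.1 ± 0.19, adjusted p = 1e-05, and 0.14 on culture sums) and marginally in brainstem (0.55 ± 0.19, adjusted p = 0.047), where the call was lost in 10 of the 13 alternatives. The brainstem day 1 call (0.61 ± 0.20, adjusted p = 0.013) rested on cultures 38 and 41 (1.1 and 1.32), since culture 42 went the other way (-0.79), and it was 0.33 without culture 38 and 0.20 without culture 41.

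Tenm1 (ENSMUSG00000016150.15, chromosome X, 42527866 to 43429126), an X-linked teneurin, was called in 1 genotype comparison. At day 1 in brainstem it was lower in K27M (-0.61 ± 0.19, adjusted p = 0.0086), with 5.05 to 12.9 CPM in control and 1.60 to 7.36 CPM in K27M. Single cultures ranged from -1.56 in culture 41 to 0.00 in culture 42, and the call did not hold without culture 41 (-0.31) or on culture sums (adjusted p = 0.29). In telencephalon its differences were 0.05 to 0.30 and none passed.

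Among the latrophilins, Adgrl2 (ENSMUSG00000028184.12, chromosome 3, 148815583 to 148990555) was higher in K27M at days 2 and 5 in both regions. At day 5 it lay at 3.39 to 7.21 CPM in brainstem control and 5.83 to 12.7 CPM in brainstem K27M (0.79 ± 0.15, adjusted p = 5.2e-06, and 0.025 on culture sums). In telencephalon it lay at 6.46 to 12.8 CPM in control and 10.4 to 17.6 CPM in K27M (0.67 ± 0.15, adjusted p = 0.00021, and 0.18 on culture sums). The day 2 calls were 0.62 ± 0.15 in brainstem and 0.40 ± 0.14 in telencephalon. The brainstem call was lost in 3 of the 13 alternatives, among them without culture 38 (0.40) and without culture 41 (0.33). The telencephalon call was lost in 6 of the 13, among them without culture 38 (0.30) and without culture 41 (0.44). Adgrl1 (ENSMUSG00000013033.16, chromosome 8, 83900105 to 83941954) differed by at most 0.39, and its only call was brainstem day 5 (0.39 ± 0.10, adjusted p = 0.00073). That Adgrl1 call was lost with DESeq2 at the study's fold threshold and with an offset for transcript length, where the difference was 0.18.

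Adgrl3 (ENSMUSG00000037605.16, chromosome 5, 81020138 to 81825133) changed sign between regions and days. In brainstem it was lower in K27M at day 1 (-0.40 ± 0.09, adjusted p = 0.0005), with 245 to 354 CPM in control against 196 to 236 CPM in K27M and no overlap. At day 5 it was higher in brainstem K27M (0.40 ± 0.09, adjusted p = 0.00022), at 81.1 to 102 CPM against 60.6 to 81.5 CPM in control. In telencephalon it was higher in K27M at days 1 (0.26 ± 0.09, and 0.17 without culture 42) and 2 (0.43 ± 0.09), while day 5 gave -0.18 ± 0.09 and did not pass. None of these 4 calls held on culture sums, where the adjusted p-values were 0.059 to 0.39.

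Among the Flrt genes, Flrt3 (ENSMUSG00000051379.12, chromosome 2, 140650914 to 140671469), a leucine-rich repeat ligand of latrophilins and Unc5 receptors, had a positive difference in all 8 genotype comparisons and was called in 5. At day 5 in telencephalon it lay at 4.77 to 6.68 CPM in control and at 9.36 to 12.6 CPM in K27M with no overlap (0.90 ± 0.14, adjusted p = 2.8e-07, and 0.058 on culture sums). At day 5 in brainstem it lay at 6.45 to 10.6 CPM in control and at 10.7 to 15.9 CPM in K27M with no overlap (0.66 ± 0.14, adjusted p = 3.7e-05, and 0.052 on culture sums). Its other calls were brainstem day 0 (0.40 ± 0.13, lost in 7 of the 13 alternatives) and telencephalon days 1 (0.38 ± 0.14) and 2 (0.66 ± 0.14). The telencephalon day 1 call rested on culture 42 (1.05, against 0.03 and 0.13) and was 0.07 without it.

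Flrt2 (ENSMUSG00000047414.6, chromosome 12, 95692226 to 95785215) was higher in brainstem K27M at day 5. It lay at 2.82 to 4.19 CPM in the 9 control libraries and at 7.08 to 12 CPM in the 9 K27M libraries. The groups did not overlap, and the log2 difference was 1.43 ± 0.16 (adjusted p = 4.2e-13, and 0.00071 on culture sums) with 1.09, 1.82 and 1.34 in cultures 38, 41 and 42. In telencephalon at day 5 the difference was 0.29 ± 0.15 and did not pass. The day 1 brainstem call of Flrt2 (0.59 ± 0.16) was positive in cultures 38 and 41 and negative in culture 42 (-0.57), and it was 0.20 without culture 41. The telencephalon day 2 call (0.55 ± 0.15) was 0.29 without culture 42 and then no longer passed.

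Flrt1 (ENSMUSG00000047787.8, chromosome 19, 7092001 to 7105729) lies within Macrod1 on the opposite strand, and Flrt3 likewise overlaps Macrod2; the library kit kept the strand. Flrt1 was lower in brainstem K27M at day 1 (-0.65 ± 0.22, adjusted p = 0.017) and higher in telencephalon K27M at day 2 (0.71 ± 0.22, adjusted p = 0.0092). Cultures disagreed in both, from -1.35 to 0.34 in brainstem and from -0.30 to 1.35 in telencephalon, and neither call held on culture sums. The brainstem value was -0.39 without culture 41, -0.36 without culture 42 and -0.29 with passage in the model, and the telencephalon value was 0.42 without culture 38 and 0.47 without culture 42, and none of these passed.

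**Figure D4:**
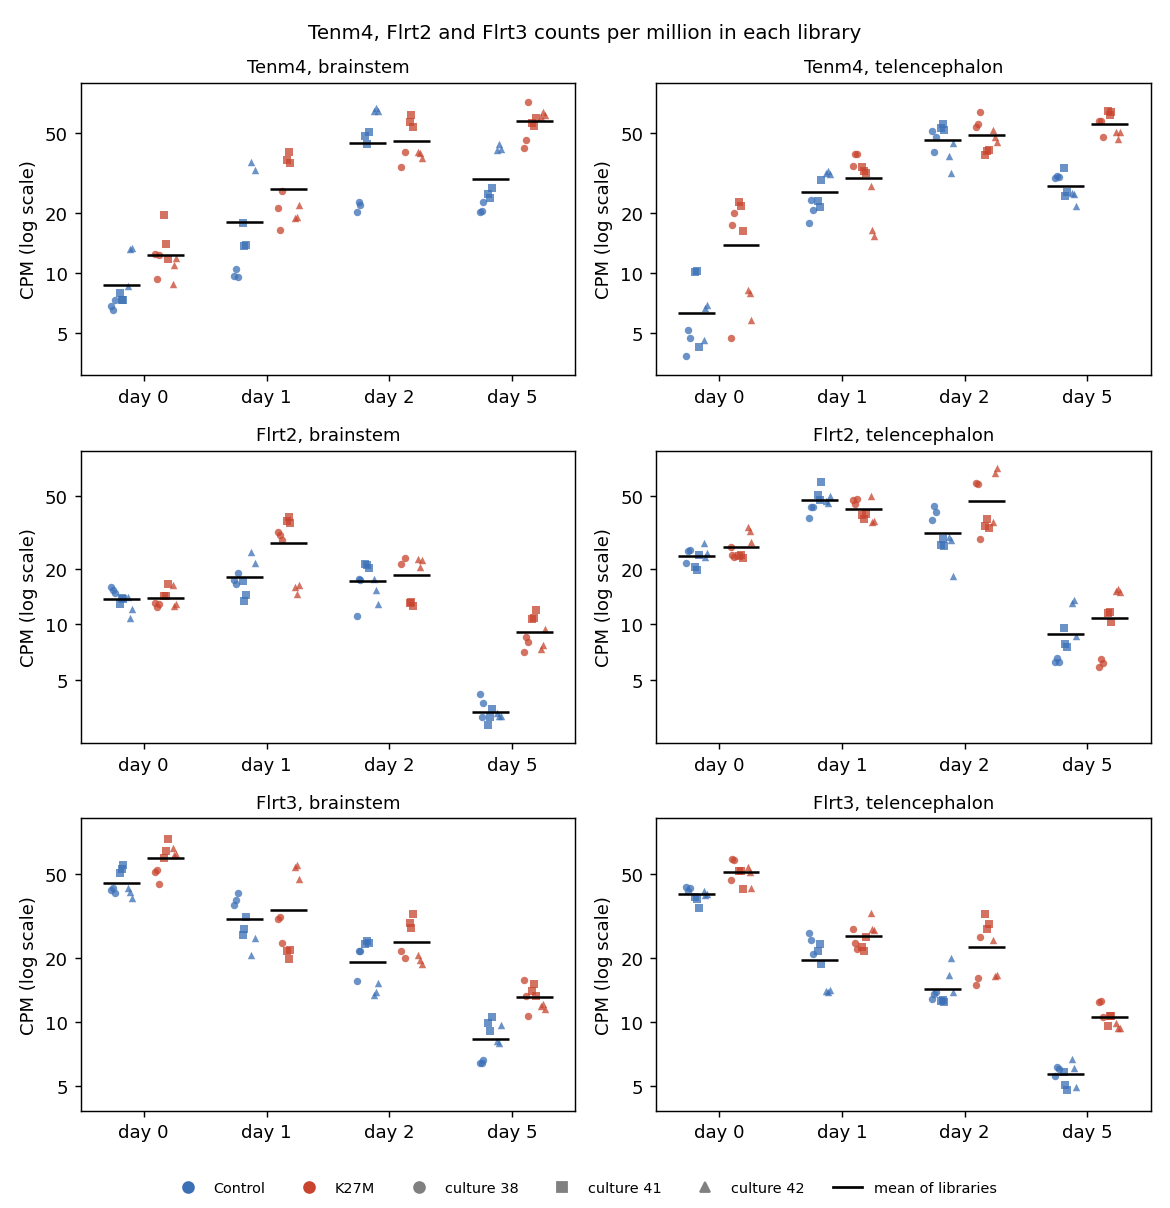
CPM (log scale) of Tenm4, Flrt2 and Flrt3 in each library by day, with control in blue, K27M in red, a marker shape for each culture and a black line at the mean of the libraries of a group. At day 5 in brainstem the Flrt2 control libraries (2.82 to 4.19 CPM) lie below all K27M libraries (7.08 to 12 CPM), and in all 4 combinations of region and genotype the mean of Tenm4 is higher, and that of Flrt3 lower, at day 5 than at day 0.

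Some markers of the lineage were also called by genotype. Over all genes, 11.3%, 28.8%, 26.1% and 38.6% were called in brainstem at days 0, 1, 2 and 5. In telencephalon the shares were 15.7%, 28.8%, 32.3% and 22.3%. The counts of oligodendrocyte and astrocyte markers at day 5 in brainstem were near or below the share of all genes. At day 5 in brainstem the summed level of the 7 oligodendrocyte markers was 49145 to 69479 CPM in control and 31591 to 41158 CPM in K27M, with 2 of 7 markers called lower, while at day 1 in brainstem 5 of 7 were higher in K27M. In telencephalon, 6 of 7 oligodendrocyte markers at day 0 and all 7 at day 1 were lower in K27M, and none was called at day 5. Astrocyte markers were lower in telencephalon K27M at day 2 (7 of 8; summed 491 to 3030 CPM in control and 184 to 1616 CPM in K27M) and higher in brainstem K27M at day 2 (5 of 8; 239 to 417 CPM and 456 to 827 CPM). At day 5, 3 of 8 astrocyte markers were higher in brainstem K27M (summed 412 to 2980 CPM in control and 1614 to 3234 CPM in K27M) and 3 of 8 were lower in telencephalon K27M (2796 to 16241 CPM and 704 to 6132 CPM). Of the 7 OPC markers, 5 were lower in brainstem K27M at day 1 (summed 3785 to 4576 CPM in control and 2299 to 3734 CPM in K27M), and 3 were lower and 1 higher at day 5. In telencephalon K27M, 3 OPC markers were higher at day 1 and 4 at day 2 (2051 to 2489 CPM in control and 1894 to 3542 CPM in K27M at day 2). The part of these markers in the results on the 10 genes was not tested. In bulk cultures, fewer cells of a type and less RNA per cell cannot be told apart.

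Brainstem and telencephalon were compared within each genotype, and here all 10 genes were tested. In control, 6 of 10 were called at day 0 (36.1% of all genes), 9 at day 1 (54.1%), 8 at day 2 (38.2%) and 7 at day 5 (43.1%). In K27M, 6 were called at day 0 (22.0% of all genes) and 5 at each of day 1 (29.1%), day 2 (20.1%) and day 5 (32.5%). On culture sums, 4, 5, 5 and 6 of the control calls held at days 0, 1, 2 and 5, where 10.9%, 27.9%, 10.3% and 14.7% of all genes were called. Of the K27M calls 3, 3, 2 and 4 held, where 3.84%, 5.58%, 3.27% and 8.84% of all genes were called. In control, Tenm2 had the largest difference of the 10 at each day.

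Tenm2 was higher in brainstem at every day in both genotypes. In control at day 1 it lay at 13.3 to 30.5 CPM in brainstem and at 0.413 to 2.14 CPM in telencephalon, a log2 difference of 4.26 ± 0.25 (adjusted p = 4.3e-32, and 2e-09 on culture sums). At the other days the control differences were 3.58 ± 0.24, 3.53 ± 0.25 and 2.86 ± 0.26. In K27M the differences were 1.92 ± 0.21, 1.92 ± 0.21, 2.05 ± 0.22 and 1.18 ± 0.21 at days 0, 1, 2 and 5, and all 8 differences held on culture sums. With an offset for transcript length the K27M day 5 value was 0.45 and not called.

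Tenm1 was also higher in brainstem at every day, by 0.73 to 1.90 on the log2 scale in control and by 0.88 to 1.87 in K27M. At day 5 in control it lay at 2.19 to 6.26 CPM in brainstem and at 0.887 to 1.80 CPM in telencephalon, with no overlap. The 2 day 2 calls did not hold on culture sums (adjusted p of 0.11 and 0.13), and the other 6 did. Flrt1 was higher in brainstem at every day as well, from 2.07 ± 0.22 at day 0 to 1.09 ± 0.22 at day 5 in control. With passage in the model the Flrt1 day 5 difference in control was 0.30 and not called, and without culture 42 it was 0.61 and not called. In K27M the Flrt1 differences were 0.82 to 1.92.

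Tenm3 and Flrt2 went the other way. Tenm3 in control was lower in brainstem by 1.13 ± 0.12 at day 0, 0.37 ± 0.12 at day 1, 1.49 ± 0.12 at day 2 and 1.93 ± 0.12 at day 5 on the log2 scale (adjusted p = 7.3e-28 at day 5, and 6.2e-07 on culture sums). The day 1 call was lost in 5 of the 13 alternatives, with passage in the model (-0.09) and without culture 41 (-0.22) among them. In K27M the difference was -0.61 ± 0.12 at day 0 (adjusted p = 1.6e-05, and 0.11 on culture sums) and -0.18 to -0.29 at later days, none of which passed. The control and the K27M libraries in these comparisons both chose the set, so these tests of Tenm3 are no support for that choice. The counts of region calls above include Tenm3 at every day in control and at day 0 in K27M. Flrt2 in control was lower in brainstem at every day (-0.78 to -1.39), and in K27M at days 0, 1 and 2 (-0.64 to -1.31) but not at day 5 (-0.23 ± 0.15).

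The latrophilins and Flrt3 differed less by region. Adgrl1 passed in none of the 8 region comparisons (-0.21 to 0.17). Adgrl2 was lower in brainstem at days 2 and 5 in control (-0.80 ± 0.15 and -0.93 ± 0.15) and at days 0, 2 and 5 in K27M (-0.51 to -0.80). At day 1 in control it was higher in brainstem (0.44 ± 0.15), with culture 41 going the other way. Adgrl3 was higher in brainstem control at days 0, 1 and 2 (0.24 to 0.49), of which day 1 held on culture sums, and in brainstem K27M at day 5 (0.78 ± 0.09, adjusted p = 4.7e-12, and 0.0007 on culture sums), at 81.1 to 102 CPM against 46.1 to 59.2 CPM. Flrt3 was higher in brainstem control at days 1, 2 and 5 (0.42 to 0.64) and in K27M at day 1 (0.42 ± 0.14), and held on culture sums at none. Tenm4 was called once, at day 1 in control (-0.60 ± 0.20), with culture 42 going the other way, and it did not hold without culture 38 (-0.31). Of 8 astrocyte markers, 4, 4, 6 and 7 were called lower in brainstem control at days 0, 1, 2 and 5. At each of days 0 and 1, 1 was called higher. Over all genes, 36.1%, 54.1%, 38.2% and 43.1% were called. At day 1 the astrocyte markers summed to 379 to 650 CPM in brainstem control and 334 to 765 CPM in telencephalon control. At day 0 the sums were 525 to 783 CPM in brainstem control and 385 to 1002 CPM in telencephalon control. At day 2 they were 239 to 417 CPM and 491 to 3030 CPM, with no overlap. At day 5 they were 412 to 2980 CPM and 2796 to 16241 CPM. All 7 oligodendrocyte markers were lower in brainstem control at day 1. The part of these markers was not tested.

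**Figure D5:**
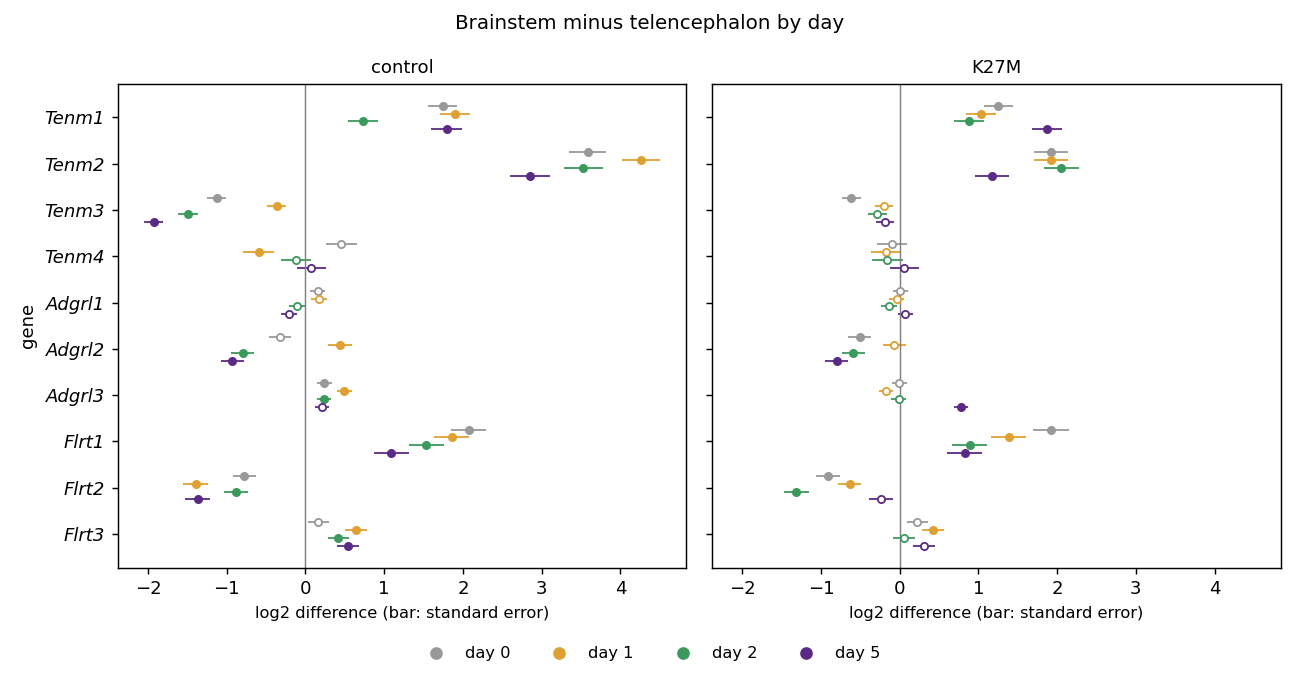
Log2 difference between brainstem and telencephalon for each gene and day in control and K27M, with the standard error as a bar, filled circles for those that passed the test and open circles for those that did not. Tenm2, Tenm1 and Flrt1 lie to the right of 0 in both panels at every day. At day 5 Tenm3 lies at -1.93 in control and at -0.18 in K27M, a change given with no test.

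The K27M effect was compared between the regions as a difference of differences for the 9 members other than Tenm3. At day 0, 1 was called (7.25% of all genes), at day 1, 5 (35.8%), at day 2, 1 (14.1%) and at day 5, 3 (29.7%). The call at days 0 and 2 was Tenm2. Its K27M effect was smaller in brainstem than in telencephalon by 1.66 ± 0.30 at day 0, 2.34 ± 0.31 at day 1, 1.48 ± 0.32 at day 2 and 1.68 ± 0.33 at day 5 (adjusted p from 1.7e-09 to 0.00033). On culture sums, where 0.00435%, 9.18%, 0.922% and 4.81% of all genes were called at days 0, 1, 2 and 5, it passed at days 1 and 5 (adjusted p of 0.0067 and 0.049) and not at days 0 and 2 (0.34 and 0.16). Flrt2 had a larger K27M effect in brainstem at days 1 (0.76 ± 0.22) and 5 (1.13 ± 0.22), and Adgrl3 a smaller one at day 1 (-0.66 ± 0.13) and a larger one at day 5 (0.57 ± 0.13). Of these only Adgrl3 at day 1 passed on culture sums (adjusted p = 0.049). For Tenm3 the differences of the 2 effects were 0.51 ± 0.17, 0.17 ± 0.17, 1.21 ± 0.17 and 1.75 ± 0.17 at days 0, 1, 2 and 5, given with no test.

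Differentiation was measured as day 5 against day 0. All 10 members were called in brainstem control (75.6% of all genes), 8 in brainstem K27M (72.3%), 9 in telencephalon control (75.1%) and 10 in telencephalon K27M (75.6%), close to the shares of all genes. The direction was mostly down. Counts of members that fell were 9, 7, 8 and 8 in that order, and 8, 7, 9 and 7 of the calls held on culture sums (62.0%, 55.1%, 60.1% and 61.2% of all genes). The medians of the 10 log2 changes were -1.61, -0.50, -0.94 and -0.47, against 0.06 to 0.09 over all genes.

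Tenm4 was the member that rose in all 4. In brainstem control it went from 6.54 to 13.3 CPM at day 0 to 20.1 to 44.4 CPM at day 5 (1.74 ± 0.19, adjusted p = 1.3e-14), after group means of 17.9 CPM at day 1 and 44.9 CPM at day 2. The rise was 2.22 ± 0.20 in brainstem K27M, 2.13 ± 0.20 in telencephalon control and 2.06 ± 0.20 in telencephalon K27M, and all 4 held on culture sums. In control of both regions the day 2 mean was above the day 5 mean, while in K27M the day 5 mean was the highest, a difference in course that was not itself tested.

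Flrt3, Adgrl3 and Flrt2 fell in all 4. Flrt3 fell by 2.44 ± 0.14 in brainstem control, 2.18 ± 0.14 in brainstem K27M, 2.82 ± 0.15 in telencephalon control and 2.26 ± 0.14 in telencephalon K27M. In telencephalon control this was a fall from 34.7 to 43.4 CPM at day 0 to 4.77 to 6.68 CPM at day 5. Adgrl3, the most abundant member, fell by 0.99 ± 0.09 in brainstem K27M and by 1.56 to 1.78 in the others. Flrt2 did not fall steadily, since its group means were higher at day 1 than at day 0 in all 4 (18.0 against 13.7 CPM in brainstem control and 47.3 against 23.5 CPM in telencephalon control). By day 5 it had fallen by 2.03 ± 0.16 in brainstem control and by 0.63 ± 0.15 in brainstem K27M.

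Tenm3 fell by 1.68 ± 0.12 in brainstem control (adjusted p = 2.1e-25) and by 0.37 ± 0.12 in brainstem K27M (adjusted p = 0.0033, and 0.098 on culture sums), the latter not called without culture 38 (-0.26). In telencephalon it fell by 0.88 ± 0.12 in control and 0.80 ± 0.12 in K27M. Tenm2 fell by 1.72 ± 0.22 in brainstem control and 1.24 ± 0.21 in brainstem K27M. In telencephalon the Tenm2 changes (-0.99 ± 0.27 in control and -0.50 ± 0.21 in K27M) depended on the scale, because with an offset for transcript length they were -0.13 and 0.72. The mean TPM of Tenm2 in telencephalon K27M was 2.15 ± 0.907 at day 0 and 3.48 ± 1.3 at day 5 (SD, n = 9), in the opposite direction to its CPM. Adgrl1 and Adgrl2 fell in all 4, by 0.35 to 0.76 and by 0.42 to 1.63. Flrt1 fell in brainstem control (-0.64 ± 0.22), rose in telencephalon K27M (1.21 ± 0.23) and did not pass in the other pair. Tenm1 fell in brainstem control (-0.64 ± 0.18) and in telencephalon control (-0.69 ± 0.19) and K27M (-0.45 ± 0.19), and of these only telencephalon control held on culture sums.

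The same Tenm3 transcript carried most counts in every group. Tenm3-206 held 64.0% and Tenm3-201 30.5% of all Tenm3 counts, and over the 16 groups their mean shares ranged from 58.5% to 68.2% and from 25.9% to 36.5%. The Tenm2 counts were assigned to Tenm2-202 (64.4%), Tenm2-201 (21.0%) and Tenm2-205 (9.03%). The mean Tenm2-201 share was 11.3% to 28.8% in the brainstem groups and 0.0% to 23.1% in the telencephalon groups, where the gene had few counts. Tenm4-203 held 71.0%, Adgrl1-207 76.5% and Flrt3-202 88.6% of the counts of their genes. Adgrl3 was spread over more transcripts, with Adgrl3-218 the first at 24%. Adgrl3-231 (14.3%) and Adgrl3-228 (8.28%) are annotated as transcripts that keep an intron. They are included in the TPM and CPM of Adgrl3.

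A list of 15 genes that bind members of the 3 families or act with them (Unc5, neurexin and Shank genes among them) was described by its counts. In K27M against control, 0 rose and 2 fell at day 0 in brainstem (11.3% of all genes called), 1 and 5 at day 1 (28.8%), 1 and 1 at day 2 (26.1%) and 6 and 1 at day 5 (38.6%). In telencephalon 1 rose and 2 fell at day 0 (15.7%), 3 and 2 at day 1 (28.8%), 4 and 3 at day 2 (32.3%) and 3 and 5 at day 5 (22.3%). The counts were near the share of all genes at day 0 in both regions and at day 1 in telencephalon, and below it at day 2 in brainstem. Unc5d, a netrin receptor that binds Flrt proteins, was higher in K27M at day 5 in both brainstem (1.12 ± 0.21, adjusted p = 6.6e-06) and telencephalon (1.49 ± 0.21, adjusted p = 1.2e-08). Unc5b rose with differentiation in each region and genotype, by 3.99 ± 0.30 to 5.69 ± 0.33. Robo1, a Slit receptor, was among the 4 partners with the lowest p in each region comparison of control and was higher in brainstem (0.78 ± 0.14 to 1.47 ± 0.15).

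A list of 28 other synaptic adhesion genes (neuroligins, Lrrtm, Slitrk, Cbln and Cadm genes among them) had 8 called at day 0, 14 at day 1, 11 at day 2 and 12 at day 5 in K27M against control in brainstem, against the same 11.3%, 28.8%, 26.1% and 38.6% of all genes. In telencephalon 7, 12, 13 and 6 were called, against 15.7%, 28.8%, 32.3% and 22.3%. The brainstem day 5 and telencephalon day 5 counts were near the share of all genes. The median log2 differences of this list lay between -0.11 and 0.17 in these 8 comparisons, while those of the 9 tested members lay between -0.18 and 0.66. Lrrtm4, a postsynaptic partner of neurexins, was lower in brainstem K27M at day 1 (-1.03 ± 0.12) and higher in K27M at day 5 in both regions (0.96 ± 0.11 and 2.01 ± 0.12). From day 0 to day 5, 13 genes of the list rose and 14 fell in brainstem control, and 12 and 12 in brainstem K27M. In telencephalon 11 rose and 15 fell in control, and 12 and 9 in K27M. Over all genes, 75.6%, 72.3%, 75.1% and 75.6% were called in that order. Slitrk2, Slitrk4 and Lrrtm3 fell in each region and genotype, by 1.38 to 3.27, and Ptprd rose in brainstem K27M by 2.69 ± 0.20.

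The genes whose course was most like that of Tenm3 were sought over the 48 means of log2 CPM of a culture line and day, among 11997 protein-coding genes. The 5 with the highest Pearson r were Gjc1 (0.911), Skida1 (0.890), Ankrd45 (0.869), Igf2bp3 (0.865) and Slc12a7 (0.860). Gjc1, a connexin, had a mean of 0.265 CPM in control and 3.33 CPM in K27M libraries, and Igf2bp3, an RNA-binding protein of fetal tissues, 8.91 and 76.8 CPM. The 48 points share libraries, cultures and genotype, so these values describe these samples. Among the members the values with Tenm3 were lower, from -0.361 for Flrt1 to 0.497 for Adgrl2.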

How the data were processed

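Stranded total RNA libraries were sequenced paired-end. The authors ran Salmon 1.10.1 against mm10 transcripts with the genome as decoy. The deposited values are expected counts (estimated counts of read pairs, which need not be whole) and TPM. The GENCODE M21 annotation (GRCm38) gave a gene for 139821 of 141084 transcripts, and the remainder held 0.252% to 0.377% of counts. For each gene the expected counts of its transcripts were added up and the sum was rounded. Because Rn7s1, an abundant small RNA, took 42.0% to 63.3% of the deposited TPM, TPM was rescaled to the protein-coding total. CPM uses TMM library sizes.

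Differences were tested with edgeR 4.0.16 (R 4.3.3) in 1 quasi-likelihood fit of all libraries, with 16 group terms and culture within region, filterByExpr (19769 genes kept) and Benjamini-Hochberg adjustment over genes in each of 24 comparisons. Standard errors are those of this fit. Values per culture are log2 ratios of mean CPM (0.01 added). Control and K27M cultures of a number were assayed together, so culture numbers were taken to pair the samples. Their deviations from the group means correlated weakly (mean r over days of 0.107 to 0.377 over 6 pairs). Single days gave r from -0.147 to 0.649, and r between unlike numbers was not computed. The fit was also run on simulated counts drawn independently for each library. That run cannot show the error rate where wells share a culture. Alternatives were DESeq2 1.42.0 with a fold threshold of 1.1, RLE size factors, no filter, wells summed per culture, 4 changes of the model terms, a length offset, each culture left out, and, chosen after seeing the data, the deepest library left out. Read pairs carried no molecular identifiers.

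The members and lists were chosen with earlier results of these data known. All 10 members are named. From the 2 partner lists at most 4 genes per comparison could be named, those with the lowest adjusted p at a mean CPM of at least 1. The genes like Tenm3 are the 5 with the highest r at that level. Of 9 members with an annotated promoter window, those printed had most counts near the start. Flrt1 had no window in the table used.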

Additional observations from a re-analysis of the deposited data

Results flagged for a closer look

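A library stood apart from the other 7 or 8 of its group, by a gap larger than Dixon's 95% limit, in 8 of 160 combinations of member and group, where chance gives about 1 in 20. These were Adgrl3 in brainstem control at day 0 (257 CPM, next 222), Tenm4 in brainstem K27M at day 0 (19.6 CPM, next 13.9), Adgrl2 in brainstem K27M at day 5 (12.7 CPM, next 9.03) and Tenm3 in telencephalon K27M at day 2 (63.1 CPM, next 46.2). Flrt1 was the member in the other 4: 13.7 CPM (next 7.23), 16.9 CPM (next 10.4) and 9.33 CPM (next 6.67) in brainstem K27M at days 0, 1 and 5, all wells numbered 3 of culture 38, and 6.69 CPM (next 3.62) in telencephalon control at day 1. All 8 were the highest library of their group. The Tenm4 library was at passage 1, where the other libraries of its culture and day were at passage 2. The Tenm3 library was at passage 1 (others at 3) and the telencephalon Flrt1 library at passage 4 (others at 2). The part of passage in these gaps was not tested. The Adgrl2 library was the same well as that of Flrt1 at day 5. In these wells of culture 38 other members also stood apart from the other wells. At day 5 Adgrl1 was at 132 CPM, against 67.7 and 70.9, and at day 1 at 220 CPM, against 134 and 91.6. Flrt3 went the other way, at 10.7 CPM against 15.9 and 13.3 at day 5 and 23.6 against 30.5 and 31.3 at day 1.

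The K27M effect differed between the regions in 10 tests of the difference itself (brainstem minus telencephalon, log2). For Tenm2 the differences were -1.66 at day 0, -2.34 at day 1, -1.48 at day 2 and -1.68 at day 5. At day 1 they were -0.86 for Tenm1, -0.51 for Adgrl2, -0.66 for Adgrl3 and 0.76 for Flrt2, and at day 5 they were 0.57 for Adgrl3 and 1.13 for Flrt2. The effects of Tenm1, Adgrl2, Adgrl3 and Flrt2 at day 1 had opposite signs in the 2 regions (-0.61 and 0.26, -0.23 and 0.28, -0.40 and 0.26, 0.59 and -0.16), as had Adgrl3 at day 5 (0.40 and -0.18). Only Adgrl3 at day 1 passed in both regions. Tenm1 and Flrt2 at day 1 and Adgrl3 at day 5 passed in brainstem only, and Adgrl2 at day 1 passed in neither. The Adgrl2 difference was marginal in the edgeR test (adjusted p = 0.045) and was lost in 9 of the 13 alternatives. Of the 10, Tenm2 at days 1 and 5 and Adgrl3 at day 1 passed on counts summed per culture.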

How the results depend on the processing

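The most influential choice was the unit of replication. With wells summed per culture, so that n is the 3 cultures, calls among the 9 tested members in K27M against control went from 17 to 5 of 36 in brainstem and from 15 to 4 of 36 in telencephalon. Calls between regions in K27M went from 21 to 12 of 40, and calls of the difference of K27M effects from 10 to 3 of 36. Calls between regions in control (30, then 20 of 40) and from day 0 to day 5 (37, then 31 of 40) stayed within 1.5 times. DESeq2 with the fold threshold of 1.1 called 10 in brainstem and 10 in telencephalon for K27M against control. It called 24 (control) and 18 (K27M) for region, 34 for days and 9 for the difference of effects. Leaving out 1 culture gave 13 to 17 calls in brainstem and 13 to 15 in telencephalon for genotype, 25 to 29 (control) and 20 to 20 (K27M) for region, 34 to 37 for days and 8 to 13 for the difference of effects. These were not all the same calls. Of the calls of the main fit, 10 to 13 of 17, 11 to 13 of 15, 24 to 26 of 30, 18 to 20 of 21, 33 to 37 of 37 and 7 to 9 of 10 were kept in that order. With the replicate block of well number added, the counts were 16, 16, 30, 21, 37 and 10 in that order, and with no replicate block for culture 13, 14, 29, 21, 37 and 9. Leaving out the deepest library gave 17, 16, 30, 21, 37 and 10. Of 130 called values of single genes, 71 stayed called in all 13 alternatives and 1 reversed: the fall of Tenm2 from day 0 to day 5 in telencephalon K27M, which was a rise of 0.72 with the length offset. The Tenm3 differences between K27M and control kept their sign in all 13 alternatives, between 0.90 and 3.18, and moved by less than the spread between cultures. The lowest counts of any library were 8 read pairs for Tenm2 and 33 for Tenm1, both in telencephalon.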
